A study of Mus musculus with 8 samples.

Results

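The thioredoxin and peroxiredoxin system was followed through 10 genes: Txn1, Txn2, Txnrd1, Txnrd2, Srxn1, Prdx1, Prdx2, Prdx5, Prdx6 and Txnip. They were chosen by name for their place in the pathway and matched by gene identifier to a table of 55414 genes; all 10 were found and all 10 passed the filter on low counts. The cells were wild-type iBMDM cells, an immortalized mouse macrophage line made from bone marrow, grown in a medium that contained the thiol 2-mercaptoethanol in every group. Control cells received the solvent DMSO and then water. The other 3 groups received 5 µM disulfiram (DSF) and then water, DMSO and then 1 µg/ml lipopolysaccharide (LPS), or DSF and then LPS (DSF+LPS). In every group the first step (DSF or DMSO) lasted 0.5 h before the second (LPS or water), which lasted 4 h. Each group had 2 libraries. Disulfiram, a drug against alcohol dependence, is itself a disulfide that reacts with protein thiols, and the study asked whether it blocks the signal of LPS through the receptor TLR4. Library totals ran from 17822041 to 21694922 counts.

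Thioredoxins are small proteins that reduce disulfide bonds in other proteins, and thioredoxin reductases recharge them with electrons from NADPH. Peroxiredoxins remove hydrogen peroxide with a reactive cysteine, most of them drawing on thioredoxin, and sulfiredoxin rescues peroxiredoxins whose cysteine has been oxidized too far. Txnip binds reduced thioredoxin and inhibits it. In macrophages the system works beside glutathione against the oxidants that these cells make, and Srxn1, Txnrd1 and Prdx1 are known targets of NRF2, the transcription factor of the response to electrophiles.

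Promoter sequence is shown for the 3 known NRF2 targets and for Txnip, because the 4 genes gave the largest changes in either direction or carry the sequence motifs searched. RefSeq promoters of the build GRCm38.p6 were found for 9 of the 10 genes, all but Prdx6, and each sequence holds the 250 bases upstream of a gene's start, 5′ to 3′ on the strand of the gene. Capitals mark matches to the motifs named after the sequences. Srxn1 lies at chr2:152105274-152105523 (plus strand), Txnrd1 at chr10:82858956-82859205 (plus strand, 1 of its 3 listed starts), Prdx1 at chr4:116685349-116685598 (plus strand) and Txnip at chr3:96557707-96557956 (plus strand).
Srxn1: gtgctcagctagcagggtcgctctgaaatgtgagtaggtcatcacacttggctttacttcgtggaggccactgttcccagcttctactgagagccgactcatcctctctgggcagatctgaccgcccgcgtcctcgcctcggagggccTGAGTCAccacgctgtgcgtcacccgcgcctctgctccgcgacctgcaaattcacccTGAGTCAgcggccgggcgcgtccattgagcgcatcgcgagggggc
Txnrd1: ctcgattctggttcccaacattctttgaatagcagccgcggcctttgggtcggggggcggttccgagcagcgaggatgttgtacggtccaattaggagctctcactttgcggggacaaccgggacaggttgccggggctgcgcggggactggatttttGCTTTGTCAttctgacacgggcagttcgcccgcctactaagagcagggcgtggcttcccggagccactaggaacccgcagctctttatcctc
Prdx1: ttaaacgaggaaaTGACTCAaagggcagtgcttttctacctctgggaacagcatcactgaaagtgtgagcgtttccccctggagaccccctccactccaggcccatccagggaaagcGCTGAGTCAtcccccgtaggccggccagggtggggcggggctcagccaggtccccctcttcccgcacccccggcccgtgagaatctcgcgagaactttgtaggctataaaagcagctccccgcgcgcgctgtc
Txnip: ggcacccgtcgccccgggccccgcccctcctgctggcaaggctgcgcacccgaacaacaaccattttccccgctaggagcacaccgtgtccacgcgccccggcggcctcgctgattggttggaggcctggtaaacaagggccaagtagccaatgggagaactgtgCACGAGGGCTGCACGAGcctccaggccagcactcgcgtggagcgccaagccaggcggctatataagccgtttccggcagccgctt

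The motifs were searched on both strands, and positions are counted back from the start, so that -1 is the base just before it. The core of the antioxidant response element, TGACNNNGC, was in 10.2% of 32851 promoters of the same length. By gene, with all listed starts of a gene together, it was in 11.5% of 27025 genes and in 2 of the 9. Prdx1 held it on the opposite strand from -133 to -125, and Txnrd1 on the opposite strand from -92 to -84. The AP-1 site, TGANTCA, was in 6.75% of promoters and 7.82% of genes, and in 2 of the 9, Srxn1 and Prdx1. Srxn1 had it from -102 to -96 and from -45 to -39, and Prdx1 from -237 to -231 and from -131 to -125, where it overlaps the antioxidant response element core. Upstream of Txnip, from -85 to -69, stood a pair of CACGNG letters 5 bases apart, which 15 of the 32851 promoters held (0.0457%). This pattern was searched as a kind of site known for factors of Txnip, so its rarity is not a separate finding. The heat shock letters GAANNTTC, in 6.69% of promoters, were in the window of none of the 9 genes. These matches describe the letters only. The start of Txnrd1 printed above is the one with a match, and its other listed starts held none of these motifs. Counts per gene do not tell which start of Txnrd1 was used.

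DSF alone raised 7 of the 10 genes and lowered 2. Sulfiredoxin rose 12.1-fold and the cytosolic reductase Txnrd1 3.03-fold, while the mitochondrial reductase Txnrd2 and the inhibitor Txnip fell to 0.562 and 0.486 times control. Both kinds of call mean an adjusted p under 0.05 in edgeR's quasi-likelihood test, with Benjamini-Hochberg adjustment over 16304 genes. By the same rule 31.0% of all genes tested rose and 27.1% fell, so a change by itself was common under the drug. Counts were found for 23416 to 25081 genes in the 4 libraries with the drug and for 19779 to 20324 in the 4 without it. The summed level of 5 lymphocyte markers, of which Cd3e was at 0 throughout, was 0.142 to 0.281 CPM in control, 0.468 to 0.474 under LPS, 1.38 to 2.12 under DSF and 1.12 to 2.76 under both. The part of these differences in the changes under the drug was not tested. The median log2 fold change was 0.38 over the 10 genes and 0.05 over all genes. LPS alone raised 3 of the 10 genes and lowered none, against 15.2% of all genes that rose and 13.8% that fell. At an unadjusted p under 0.05 the number lowered by LPS was also 0 in edgeR, and DESeq2 likewise called 0; the median was 0.11 over the 10 genes and 0.02 over all genes.

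**Figure D1:**
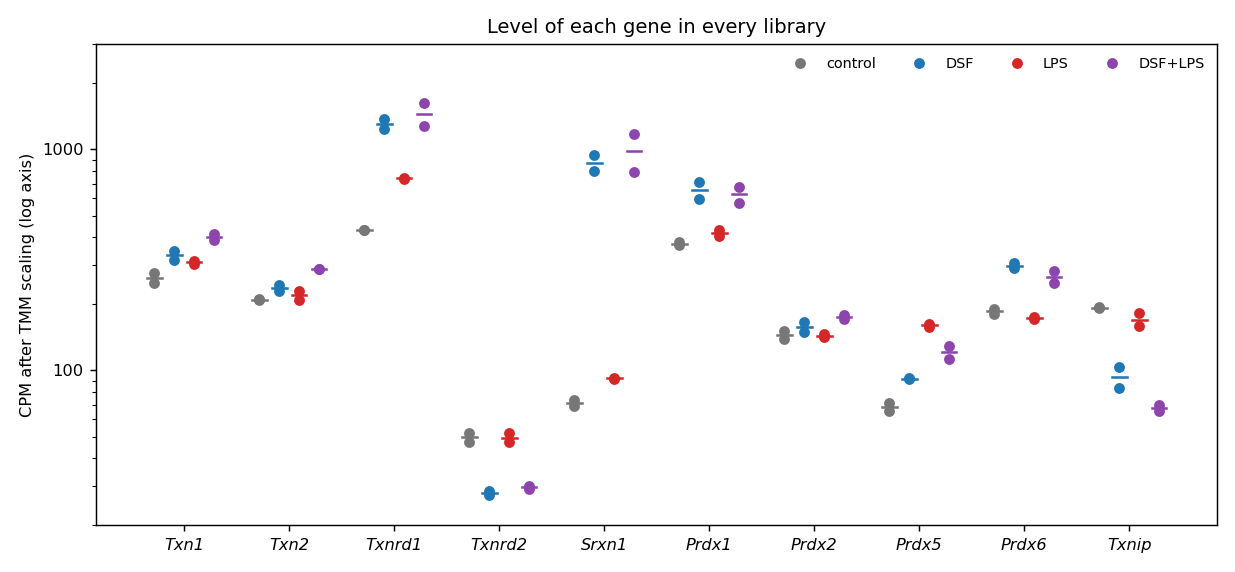
Level of each of the 10 genes in every library, in CPM (counts relative to the scaled library total; log axis). Colours mark the groups, each point is a library and each short bar the mean of a group (n = 2). Srxn1 stood between 69.3 and 92.0 CPM in the 4 libraries without DSF and between 788 and 1170 CPM in the 4 with it.

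Srxn1, which encodes sulfiredoxin, was at 69.3 and 73.8 CPM in the control libraries, 940.2 and 795 under DSF, 92.0 and 91.9 under LPS, and 788 and 1169.9 under both. CPM are counts divided by the scaled library total. Every library with the drug was above every library without it, and the DSF and DSF+LPS groups overlapped. DSF raised Srxn1 by 3.60 on the log2 scale (SE 0.15, edgeR adjusted p = 7.67e-11), and in the presence of LPS by 3.41 (SE 0.14, edgeR adjusted p = 5.77e-11). Among the 16304 genes the first of these was the 1026th largest rise. Both LPS libraries were above both control libraries, but the difference of 0.36 (95% interval 0.06 to 0.66) missed the threshold with an edgeR adjusted p of 0.0664. It passed in 6 of the 13 other ways of analysis, among them without DSF replicate 2 and without either DSF+LPS replicate, with values between 0.34 and 0.36 in these 6. The combined group was not shown to differ from DSF alone (0.17, 95% interval -0.10 to 0.45), with its own libraries far apart. Without DSF+LPS replicate 1 that difference was 0.42 (edgeR adjusted p = 0.00107), and without DSF+LPS replicate 2 it was -0.11.

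The reductases went opposite ways under the drug. Txnrd1, the cytosolic selenoprotein that recharges Txn1, was at 431 and 431.5 CPM in control, 1371 and 1243 under DSF, 743 and 736 under LPS, and 1282 and 1626 under both. Control, LPS and the drug groups formed 3 separate levels, and DSF and DSF+LPS overlapped. The rise was 1.60 with DSF (log2, SE 0.09, edgeR adjusted p = 2.04e-09) and 0.78 with LPS (SE 0.09, edgeR adjusted p = 7.01e-06). Txnrd2, the mitochondrial reductase, was at 52.3 and 47.3 CPM in control, 28.6 and 27.4 under DSF, 52.0 and 47.3 under LPS, and 30.0 and 29.1 under both. Control and LPS overlapped, and every library with the drug was lower than every library without it. DSF lowered Txnrd2 by 0.83 on the log2 scale (a change of -0.83, SE 0.10, edgeR adjusted p = 3.90e-06). LPS left a difference of -0.00 (95% interval -0.20 to 0.19, edgeR adjusted p = 0.999). Per length, counting merged exons, Txnrd1 was at 5.12 and 5.67 times the level of Txnrd2 in the control libraries, 29.8 and 28.2 times under DSF, 8.88 and 9.67 times under LPS, and 26.6 and 34.6 times under both.

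The thioredoxins themselves moved little. Txn1, the cytosolic thioredoxin, was at 277 and 248 CPM in control, 315 and 348 under DSF, 314 and 303 under LPS, and 390.03 and 414 under both. The 4 groups did not overlap, with control lowest and DSF+LPS highest. Its rise was 0.34 with DSF (log2, SE 0.07, edgeR adjusted p = 0.00125), 0.23 with LPS (SE 0.07, edgeR adjusted p = 0.0275) and 0.61 with both against control (SE 0.07, edgeR adjusted p = 4.41e-06). The call for LPS was lost without scaling beyond library size (0.08) and without control replicate 2 (0.15), LPS replicate 1 (0.21) or LPS replicate 2 (0.25), with edgeR adjusted p-values up to 0.464. A processed copy of the gene, Txn-ps1, had 179 to 313 counts a library. Txn2, the mitochondrial thioredoxin, was at 208 and 209.7 CPM in control, 229.6 and 244 under DSF, 229.7 and 208 under LPS, and 287 and 286 under both. Only the DSF+LPS libraries stood clear of the rest. The rise of 0.18 with DSF (SE 0.07, edgeR adjusted p = 0.0375) was lost in 8 of 13 other ways of analysis, including the removal of any single library of control, DSF or LPS. Without control replicate 1 or 2 it was 0.16 or 0.17, without DSF replicate 1 or 2 it was 0.20 or 0.11, and without LPS replicate 1 or 2 it was 0.17. The rise of 0.39 in DSF+LPS over LPS (SE 0.07, edgeR adjusted p = 0.000176) was kept in all 13.

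Prdx1 and Prdx6 followed the drug. Prdx1, an abundant cytosolic peroxiredoxin, was at 380.03 and 368 CPM in control, 711 and 595 under DSF, 406 and 432 under LPS, and 574 and 678 under both. The groups with the drug overlapped each other and lay above the groups without it, and LPS lay just above control. Prdx6, which takes its electrons from glutathione and also acts as a phospholipase, was at 180.4 and 190.05 CPM in control, 306 and 289 under DSF, 172 and 175 under LPS, and 248 and 280.5 under both. Each of the 4 groups of Prdx6 was separate, with LPS lowest and DSF highest. With DSF the rise was 0.81 for Prdx1 (log2, SE 0.09, edgeR adjusted p = 2.60e-06) and 0.68 for Prdx6 (SE 0.07, edgeR adjusted p = 1.85e-06). LPS gave 0.16 for Prdx1 (95% interval -0.03 to 0.35) and -0.10 for Prdx6 (95% interval -0.25 to 0.06), and neither passed. The near copies Prdx6b and Prdx6-ps2 had at most 4 counts and 1 count in any library.

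Prdx5 was the peroxiredoxin that LPS raised. This enzyme sits in mitochondria, peroxisomes and cytosol. It was at 71.4 and 65.7 CPM in control, 91.4 and 92.03 under DSF, 163 and 157 under LPS, and 113 and 129 under both. No group overlapped another, and the order was LPS, DSF+LPS, DSF and control. LPS raised Prdx5 2.33-fold (log2 1.22, SE 0.08, edgeR adjusted p = 2.18e-08) and DSF raised it 1.34-fold (0.42, SE 0.08, edgeR adjusted p = 0.000507). In the presence of LPS the drug lowered it, to 0.757 times the level with LPS alone (-0.40, SE 0.08, edgeR adjusted p = 0.000474). Prdx5 was thus lower in DSF+LPS than in LPS and higher in DSF than in control. Trmt112, whose exons overlap those of Prdx5 on the opposite strand, was at 3.26 to 8.79 CPM.

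Prdx2, a cytosolic peroxiredoxin best known from red blood cells, was called with neither agent alone. It was at 150.5 and 138 CPM in control, 149.7 and 165 under DSF, 146 and 141 under LPS, and 177 and 171 under both. Only the libraries with both agents lay above all the others. The combined treatment was called over LPS, by 0.28 (log2, SE 0.08, edgeR adjusted p = 0.00426), and over control, by 0.27 (SE 0.07, edgeR adjusted p = 0.00516). The first call was lost without LPS replicate 2 (0.25, edgeR adjusted p = 0.0510), and the second without control replicate 2 (0.20, edgeR adjusted p = 0.103) and with library size alone (0.06). DSF alone gave 0.13 (95% interval -0.04 to 0.29), which did not pass. The combined treatment was not shown to differ from DSF alone (0.15, 95% interval -0.01 to 0.31, edgeR adjusted p = 0.226). Exons of Prdx2 overlap those of Junb and Rnaseh2a on the opposite strand, and the strand setting of the counting is not given in the sources used here. Junb, an immediate early gene, was at 105 and 107 CPM in control, 366 and 392 under DSF, 292 and 297 under LPS, and 609 and 476 under both, and so was highest in the same group as Prdx2. Its part in the values of Prdx2 was not tested.

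Txnip, the inhibitor of thioredoxin, fell with the drug and lay lowest with both agents. It was at 193 and 192 CPM in control, 104 and 83.3 under DSF, 181 and 159 under LPS, and 69.6 and 65.2 under both. The 4 groups were separate, in the order control, LPS, DSF and DSF+LPS. DSF changed it by -1.04 (log2, SE 0.10, edgeR adjusted p = 4.97e-07), and in the presence of LPS by -1.33 (SE 0.10, edgeR adjusted p = 2.93e-08). LPS alone gave -0.18 (95% interval -0.39 to 0.03) and did not pass. Among the 16304 genes the change with DSF was the 885th largest fall, and that in DSF+LPS against control the 581st. Per length, Txnip was at 0.234 and 0.261 times the level of Txn1 in control, 0.111 and 0.0806 times under DSF, 0.195 and 0.176 times under LPS, and 0.0601 and 0.0530 times under both. The paired half-sites printed upstream of Txnip are of the kind known to bind MondoA with Mlx, the glucose-sensing factors of this gene. The overlapping antisense gene Gm15441 had 2 to 16 counts a library.

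**Figure D2:**
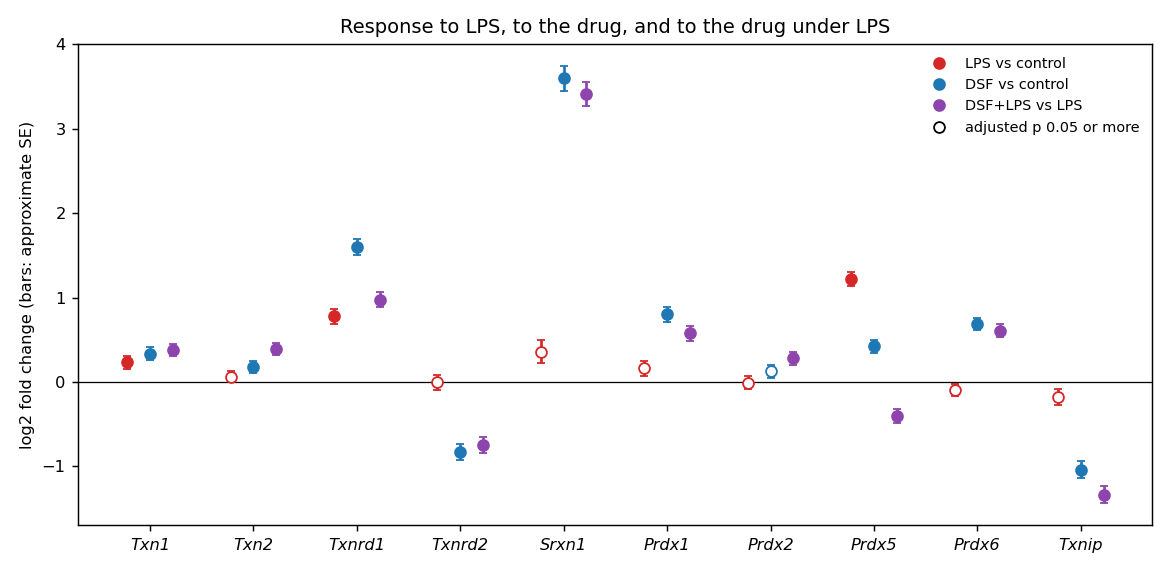
Log2 fold change (vertical axis; bars are the approximate SE) of each of the 10 genes for LPS vs control, DSF vs control and DSF+LPS vs LPS; points above 0 are higher in the first group named, and open points had an adjusted p of 0.05 or more. Srxn1 is at 3.60 and 3.41 under the drug without and with LPS, Txnip at -1.04 and -1.33, and Prdx5 at 0.42 and -0.40.

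With LPS present, the drug raised 7 of the 10 genes and lowered 3, against 33.7% of all genes that rose and 31.6% that fell; the share lowered was near that of all genes. The genes raised were Srxn1, Txnrd1, Prdx1, Prdx6, Txn1, Txn2 and Prdx2, and the genes lowered were Txnip, Txnrd2 and Prdx5. The median log2 fold change was 0.39 for the 10 genes and 0.04 for all genes. This comparison and that of LPS with control share the LPS libraries, and that of DSF with control shares none with it. Against control, the combined treatment raised 8 and lowered 2 (Txnip and Txnrd2), where 34.3% of all genes rose and 30.9% fell, with medians of 0.56 and 0.05.

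Adding LPS to cells that already had the drug raised Txn1, Txn2 and Prdx5 and lowered Txnip. That is 3 of 10 genes up and 1 down, against 5.53% and 6.53% of all genes. The changes from DSF to DSF+LPS were 0.28 for Txn1 (log2, SE 0.07, edgeR adjusted p = 0.0262), 0.28 for Txn2 (SE 0.07, edgeR adjusted p = 0.0197), 0.40 for Prdx5 (SE 0.08, edgeR adjusted p = 0.00691) and -0.47 for Txnip (SE 0.10, edgeR adjusted p = 0.00852). All 4 calls were lost without DSF replicate 1, where the values were 0.22, 0.24, 0.40 and -0.30. Without DSF+LPS replicate 1 the number raised was 5, with Txnrd1 at 0.31 and Srxn1 at 0.42, and without DSF+LPS replicate 2 the number lowered was 2, with Prdx6 added at -0.23.

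The difference between the LPS response with the drug and without it was tested as an interaction. It was negative for Prdx5 (-0.82 on the log2 scale, SE 0.11, edgeR adjusted p = 0.000121) and Txnrd1 (-0.63, SE 0.12, edgeR adjusted p = 0.00232). Both rose less with LPS in drug-treated cells: Prdx5 by 0.40 against 1.22, and Txnrd1 by 0.15 (95% interval -0.03 to 0.34) against 0.78. None of the 10 had a positive interaction that passed in edgeR or DESeq2, and at an unadjusted p under 0.05 there was 1 (Txn2, 0.21). Over all genes 7.58% had a positive and 12.2% a negative interaction by this rule. For Srxn1 the interaction was -0.19 (95% interval -0.59 to 0.22), and it passed at -0.45 without DSF+LPS replicate 2 but was 0.0809 without DSF+LPS replicate 1. For Txnip it was -0.29 (95% interval -0.59 to 0.00), and it passed at -0.41 without DSF replicate 2 but was -0.0972 without DSF replicate 1.

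**Figure D3:**
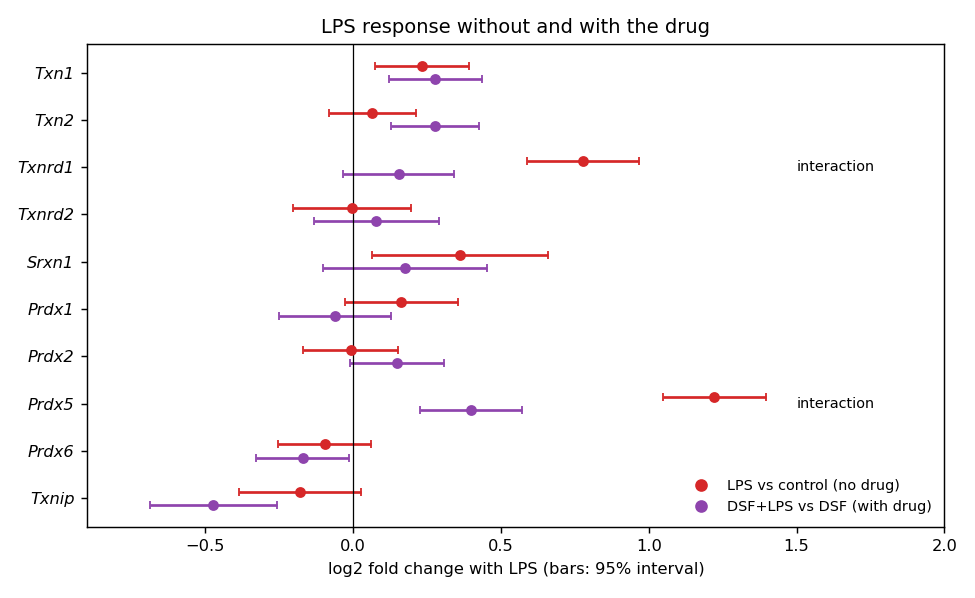
LPS response (log2 fold change with 95% interval) of each of the 10 genes without the drug (LPS vs control) and with it (DSF+LPS vs DSF). Prdx5 goes from 1.22 to 0.40 and Txnrd1 from 0.78 to 0.15, the 2 genes whose difference passed the test and which carry the word interaction.

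Levels can be compared between genes only per length. In control cells Txn1 was highest at 249.8 CPM per kb of merged exons, followed by Prdx1 at 123, Txnip at 61.6, Txnrd1 at 60.8 and Txn2 at 49.7. Prdx2 stood at 47.3, Prdx6 at 38.6, Prdx5 at 32.0, Srxn1 at 25.4 and Txnrd2 lowest at 11.3. With DSF the mean of Srxn1 was 308, next to Txn1 at 316, and those of Prdx1 and Txnrd1 were 215 and 184. The values and their order depend on the length used. By the longest transcript, control Txnrd1 was at 119, Txn2 at 102 and Prdx1 at 163, and with DSF Txnrd1 was highest at 361, followed by Txn1 at 316 and Srxn1 at 309.

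The genes whose levels followed those of the main members most closely over the 8 libraries were listed by Pearson's r of log2 CPM among 10641 genes, as a description. For Srxn1 these were Atf5 (r = 0.999), Pea15a (0.998) and Ankrd50 (0.997). For Txnrd1 they were Ampd3 (0.998), Lrrfip2 (0.998) and Gab2 (0.997). For Prdx1 they were Gm43712 (0.990), Platr27 (0.988) and Rb1cc1 (0.988), and for Txnip they included H1f0 (0.997) and Vps36 (0.996). The libraries share their groups, and 1457, 988, 967 and 1965 genes had an r above 0.9 with Srxn1, Txnrd1, Prdx1 and Txnip, so such values were common.

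The wider pathway was counted over 48 further genes, of which 45 were tested. DSF raised 13 and lowered 23, where 31.0% of all genes rose and 27.1% fell. LPS raised 9 and lowered 11 (15.2% and 13.8% of all genes), and DSF in the presence of LPS raised 12 and lowered 22 (33.7% and 31.6% of all genes). The median log2 fold change with DSF was -0.29 over the 45 genes and 0.05 over all genes. Of 12 genes for other thioredoxin-fold proteins and glutaredoxins, DSF raised 2 and lowered 6 (all genes: 31.0% and 27.1%). Txndc5, a disulfide isomerase of the endoplasmic reticulum, changed by -1.04 (log2, SE 0.07), Glrx, a glutaredoxin, by -0.97 (SE 0.11) and Txnrd3, the third reductase, by -0.64 (SE 0.11), while Txndc12 rose by 0.72 (SE 0.10). Their edgeR adjusted p-values were at most 0.000239. Of 9 tested peroxide and superoxide enzymes, DSF raised 5 and lowered 4 (all genes: 31.0% and 27.1%). Catalase (Cat) rose by 0.98 (SE 0.10), Sod1 by 0.71 (SE 0.09) and Gpx4 by 0.59 (SE 0.13), and the mitochondrial Prdx3 changed by -0.49 (SE 0.07), with edgeR adjusted p-values of at most 0.00112.

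With LPS, 3 of the 9 peroxide and superoxide enzymes rose and 2 fell (all genes: 15.2% and 13.8%). Catalase changed by -0.28 (log2, SE 0.10, edgeR adjusted p = 0.0399) and Gpx4 by -0.46 (SE 0.14, edgeR adjusted p = 0.0181); both rose with DSF. The call of Gpx4 was lost without control replicate 1 (-0.48), control replicate 2 (-0.45) or LPS replicate 2 (-0.36), and that of catalase without control replicate 1 (-0.33), control replicate 2 (-0.24), LPS replicate 1 (-0.33) or LPS replicate 2 (-0.25). Sod2, the mitochondrial superoxide dismutase, was at 165 and 171 CPM in control, 134 and 152 under DSF, 784 and 779.98 under LPS, and 238 and 261 under both. It rose by 2.22 with LPS (log2, SE 0.08, edgeR adjusted p = 1.11e-11), and was lower with DSF+LPS than with LPS by 1.65 (a change of -1.65, SE 0.07). Glutathione reductase (Gsr) rose by 0.86 with LPS (SE 0.11) and by 0.37 with DSF (SE 0.11), and changed by -0.46 in DSF+LPS against LPS (SE 0.11). As with Prdx5, the level of Gsr was thus raised by each agent alone and was lower with both than with LPS. Gsr was at 105 and 100 CPM in control, 140 and 126 under DSF, 188 and 186 under LPS, and 114 and 157 under both. Unlike those of Prdx5, its DSF and DSF+LPS libraries overlapped.

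Among 9 tested genes for clients of thioredoxin and for repair of oxidized methionine, DSF raised 3 and lowered 4 (all genes: 31.0% and 27.1%), so that the share raised was near that of all genes. The sestrins, stress-induced proteins that support the reduction of peroxiredoxins, split. Sesn2 was at 29.1 and 31.5 CPM in control, 157 and 197 under DSF, 28.4 and 27.0 under LPS, and 265 and 189 under both. Sesn1 was at 36.9 and 33.0 CPM in control, 5.21 and 6.20 under DSF, 8.49 and 7.75 under LPS, and 4.95 and 4.69 under both. Sesn2 was thus high only in libraries with the drug, and Sesn1 was low in all 6 libraries that had either agent. Rrm1, the large subunit of the ribonucleotide reductase that thioredoxin feeds, changed by -1.10 with DSF (log2, SE 0.07, edgeR adjusted p = 3.96e-09).

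Genes for the synthesis of selenoproteins, the class to which Txnrd1 and Txnrd2 belong, fell with the drug in 4 of 5 cases and rose in none, both in edgeR and at an unadjusted p under 0.05, where 27.1% of all genes fell and 31.0% rose. Sephs2, which makes the selenium donor, was at 181 and 171 CPM in control, 86.1 and 79.7 under DSF, 148 and 151 under LPS, and 57.8 and 62.3 under both. It changed by -1.09 with DSF (log2, SE 0.08), Pstk by -0.55 (SE 0.14), Sepsecs by -0.49 (SE 0.12) and Eefsec by -0.36 (SE 0.10), with edgeR adjusted p-values of at most 0.00469. Txnrd1 rose in the same libraries in which these 4 genes fell.

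Of the 7 alpha-arrestins, the family of Txnip, and MondoA factors, DSF raised 2 and lowered 3 (all genes: 31.0% and 27.1%), so that the share raised was near that of all genes. Arrdc4, the nearest relative of Txnip, rose by 0.96 (log2, SE 0.16, edgeR adjusted p = 0.000133) while Txnip fell, and Mlxip, which encodes MondoA, changed by -1.09 (SE 0.10, edgeR adjusted p = 5.00e-07). Of the 3 genes for NRF2 and its partners, Bach1, a repressor at NRF2 sites, rose by 1.99 (SE 0.08, edgeR adjusted p = 6.55e-11). It was at 50.6 and 51.2 CPM in control, 190.1 and 215 under DSF, 55.8 and 53.5 under LPS, and 218 and 227 under both. Keap1, which holds NRF2 in check, changed by -0.72 with DSF (SE 0.11, edgeR adjusted p = 8.41e-05). Nfe2l2, the gene of NRF2, changed by -0.21 with DSF (SE 0.07, edgeR adjusted p = 0.0147) and rose by 0.53 with LPS (SE 0.07, edgeR adjusted p = 1.79e-05). The call with DSF was lost without control replicate 2 (-0.17, edgeR adjusted p = 0.135).

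**Figure D4:**
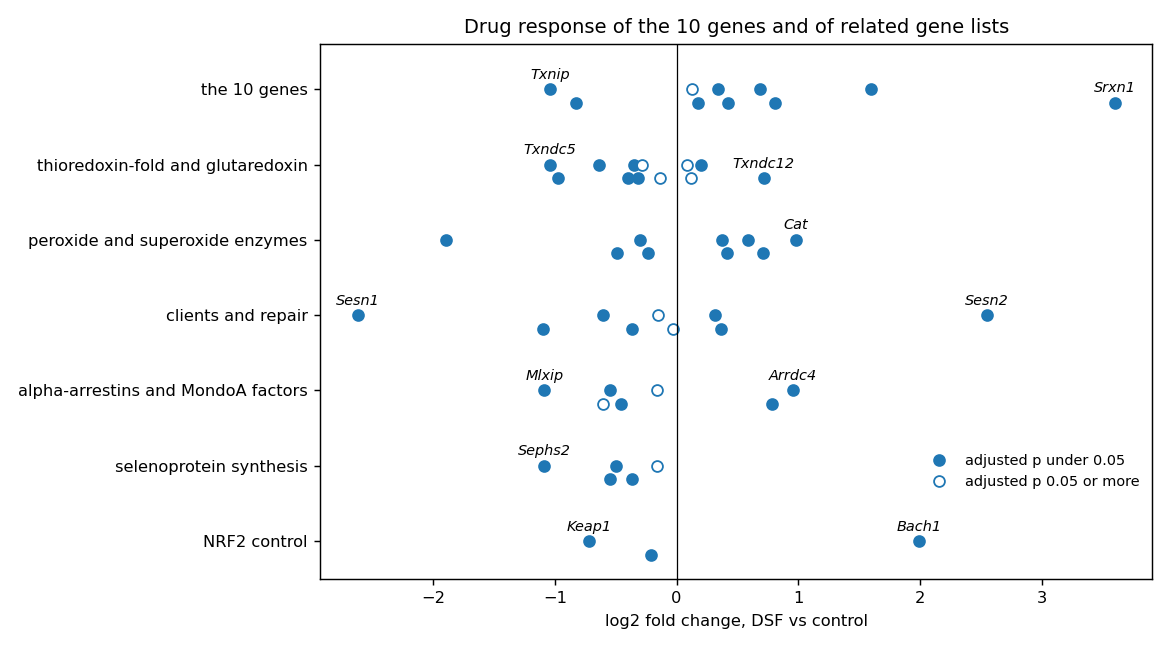
Log2 fold change with DSF alone for the 10 genes and for 6 lists of related genes; each point is a gene, filled where the adjusted p was under 0.05. Srxn1 at 3.60 is the point farthest right, Sesn1 at -2.62 that farthest left, and no point of the selenoprotein synthesis list is right of 0.

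The labels of the groups were checked with genes outside the system. Tnf, which LPS induces, was at 37.0 to 54.6 CPM without LPS, 833 and 850 with LPS, and 202 and 259 with both. Hmox1, an NRF2 and heme target, was at 181 to 213 CPM without the drug and 6090 to 7720 with it. All 9 macrophage markers had counts, with sums of 2401 to 2473 CPM in control, 2084 to 2204 with DSF, 2698 to 2757 with LPS and 2238 to 2324 with both. Single markers moved apart: Csf1r was at 804 and 826 CPM in control and 443 and 478 under DSF, Ptprc at 248 and 256 against 139 and 137, and Fcgr1 at 41.9 and 44.5 against 12.0 and 10.6. Cd14 was at 40.8 and 40.5 CPM in control and 131 and 117 under DSF, and Cd68 at 569 and 592 against 735 and 785. Sums over the markers of neutrophils, dendritic cells, lymphocytes and fibroblasts did not exceed 3.42 CPM in any library, S100a9 and Cd3e were at 0 in all 8, and those of epithelial and endothelial cells were at 8.10 to 13.9 CPM. Whether the number of living cells or the RNA per cell differed between groups cannot be told from these libraries. All values are shares of a library's counts.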

How the data were processed

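For 8 messenger RNA libraries of iBMDM cells the authors deposited unnormalized counts per gene. The submitters' processing notes list DESeq2 and the build GRCm39 but give a role to neither. Aligner, annotation and strand setting: not given in the sources used here. Samples are numbered 1 and 2 within a group, with no word on whether they were separate cultures. The p-values therefore reflect the spread of these samples alone, possibly a technical one.

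Symbols came from GENCODE M21 (GRCm38) by gene identifier: 52081 of 55414 rows matched and 3333 did not. All 8 libraries entered 1 fit in edgeR 4.0.16 (R 4.3.3), with a mean per group and no other term, TMM scaling and the default filter of filterByExpr (at least 10 counts in enough libraries and 15 in total). It kept 16304 genes. The 6 comparisons were tested by quasi-likelihood and adjusted by Benjamini-Hochberg over all genes within a comparison. SE is approximate: the log2 fold change without its sign over the root of F. CPM were computed on TMM-scaled libraries, except sums over markers, which use plain totals. Library totals ran from 17822041 to 21694922 counts. The biological coefficient of variation was 7.85%. On data simulated from these libraries with 200 changed genes per comparison, genes changed 2-fold were recovered at 72.4% (LPS against control, 15627 genes), 68.2% (DSF against control, 15594 genes), 72.2% (DSF+LPS against LPS, 15639 genes), 77.5% (DSF+LPS against DSF, 15640 genes), 77.6% (DSF+LPS against control, 15610 genes) and 61.3% (interaction, 15634 genes). Far more genes were called in the data, from 1966 (DSF+LPS against DSF) to 10653 (DSF+LPS against LPS), so these rates need not hold there.

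The members, the lists and the motifs were chosen with earlier results of these data known. All 10 members are named; of each wider list and comparison at most 4 called genes are named, those with the largest change at 5 CPM or more in the higher group, and 3 genes by likeness for each of 4 members at a mean of 5 CPM or more. Some items that these rules name are not reported here. Per-library values of wider genes were given for genes picked after their values were seen. Promoters came from RefSeq (GRCm38.p6). The alternatives were DESeq2 1.42.0, library size alone, no filter on low counts, the replicate number as a block, only the compared groups, and leaving out each library in turn.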

Additional observations from a re-analysis of the deposited data

Results flagged for a closer look

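In each of the following genes the LPS response differed between cells with and without the drug, by the interaction test of edgeR with adjustment over all genes (adjusted p under 0.05). The values are log2 interactions, negative where the response with the drug was the lower. Among the members these were Prdx5 (-0.82) and Txnrd1 (-0.63), and both calls held in all alternatives run. In the wider lists Sod2 (-1.42), Gsr (-0.84), Rrm2b (-0.72), Txnl1 (-0.55), Txndc9 (-0.45) and Nfe2l2 (-0.44) were negative. Sesn1 (1.87), Msrb2 (0.81), Arrdc2 (0.79), Gpx4 (0.78) and Sod1 (0.44) were positive. The calls of Sod2, Gsr, Txnl1, Nfe2l2, Sesn1 and Arrdc2 held in the 12 alternatives. That of Gpx4 was lost without LPS replicate 2 (0.67) and that of Rrm2b without control replicate 2 (-0.68), DSF replicate 1 (-0.65) or LPS replicate 2 (-0.71). Sod1 lost its call without control replicate 1 (0.41), DSF replicate 1 (0.34), LPS replicate 1 (0.46) or LPS replicate 2 (0.42). Msrb2 lost its call in DESeq2 (0.83) and without control replicate 1 (0.63), DSF replicate 1 (0.72), LPS replicate 1 (0.82) or LPS replicate 2 (0.79). Txndc9 lost its call without control replicate 1 (-0.44) or 2 (-0.47), DSF replicate 2 (-0.34), LPS replicate 1 (-0.45) or 2 (-0.46), or DSF+LPS replicate 1 (-0.35). Sesn1 changed by -2.10 with LPS alone and by -2.62 with the drug alone.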

How the results depend on the processing

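Of the 38 results called for a member in a comparison, none reversed in 492 alternative values and 468 kept their call; 24 lost it, as given in the report for Txn1, Txn2, Prdx2, Prdx5 and Txnip. Of 22 results not called, 16 of 278 alternative values passed the threshold and 14 changed sign. With library size alone in place of TMM the median of all genes shifted by -0.14 (LPS against control), -0.10 (DSF against control), -0.11 (DSF+LPS against DSF) and -0.21 (DSF+LPS against control), and the share of calls that were rises went from 52.5% to 29.96%, from 53.3% to 45.6%, from 45.8% to 17.5% and from 52.7% to 40.98%. Under it 2 members fell with LPS, Prdx6 at -0.25 and Txnip at -0.34. The change of Txn2 with LPS was -0.0931 and was not called. From DSF to DSF+LPS 1 member rose and 2 fell with library size alone, the 2 being Txnip and Prdx6 (-0.28). Txnrd2 changed sign there, to -0.0276, and was not called. With only the compared groups in the fit, LPS raised 5 members (Srxn1 at 0.35 and Prdx1 at 0.15 were added) and lowered 1 (Txnip at -0.19), and from DSF to DSF+LPS 524 genes were called in place of 1966, with 1 member risen and 0 fallen in edgeR (2 at an unadjusted p under 0.05 in the fit of all groups, and 1 in DESeq2).

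Leaving out 1 library at a time, the number of genes called ranged from 3146 (without control replicate 2) to 5545 for LPS with control (4731 with all libraries), from 399 (without DSF replicate 1) to 2406 for DSF+LPS with DSF, and from 2003 (without LPS replicate 2; 2072 without control replicate 1) to 3797 for the interaction (3217 with all). Members risen from DSF to DSF+LPS ranged from 0 to 5 and members fallen from 0 to 2. Signs that turned belonged to changes that were not called. With LPS, Txn2 ranged from -0.0124 (without LPS replicate 1) to 0.133, Txnrd2 from -0.0813 to 0.0661 (without control replicate 1; 0.0590 without LPS replicate 2) and Prdx2 from -0.0743 to 0.0511 (without control replicate 1; 0.0114 without LPS replicate 2). From DSF to DSF+LPS, Prdx1 ranged from -0.174 to 0.0787 (without DSF replicate 1; 0.0458 without DSF+LPS replicate 1), Txnrd1 from -0.00015 to 0.307 and Srxn1 from -0.112 to 0.423, both lowest without DSF+LPS replicate 2. For the interaction, Txn1 ranged from -0.0396 (without control replicate 1) to 0.148, Srxn1 from -0.454 to 0.0809 and Prdx6 from -0.120 to 0.0220, both highest without DSF+LPS replicate 1. The cause was not tested. Where a group is left with 1 library, that library is assumed to vary like the other groups.

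The shared replicate numbers were checked for pairing. The differences between replicates correlated at -0.12 to 0.05 over the 6 pairs of groups, none above 0.1. A pairing that moved few genes would not show in such a correlation, so whether the samples were paired is not known. With the replicate number as a block, 4734 genes were called for LPS with control, and Srxn1 passed at 0.36 (edgeR adjusted p = 0.0443); no other call of a member changed. Recovery of changes smaller than 2-fold was not tested.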
